A study of Mus musculus with 24 samples.

Results

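The RNA levels of 10 genes of the vascular endothelial growth factor (VEGF) and angiopoietin systems are described in cultured MBMECs, which are endothelial cells isolated from the small vessels of the mouse brain. The genes were taken by symbol: the VEGF receptors Kdr, Flt1 and Flt4, the co-receptors Nrp1 and Nrp2, the TIE receptors Tek and Tie1, and the ligands Angpt2, Vegfa and Vegfc. All 10 were among the 18091 genes of the wild-type table, and all 10 were among the 12249 genes that passed the filter on low values. Wild-type C57B/6J cells were treated for 24 h on transwell inserts with 50 nM sphingosine-1-phosphate (S1P, a lipid mediator) on the basal or the apical side, with 500 nM of the S1P4 receptor agonist CYM50260 on the basal or the apical side, or with vehicle. Each of these 5 groups had 4 libraries, and 4 more libraries, also treated with vehicle, carry the label of a global S1P4 knockout. All groups share 48 h of puromycin, which was used to remove other cell types, and each library pooled 3 inserts. The submitters give 12 mice per replicate, but which library came from which pool of mice is unknown here, and p-values therefore measure only the spread between these libraries. The submitters describe basal S1P as opening the endothelial barrier and the other 3 treatments as tightening it. What limits these cells as a model is that they were isolated from pooled cortex and midbrain vessels and grown on inserts, without blood flow.

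VEGF-A binds the tyrosine kinase receptors VEGFR-2 (from Kdr), which carries most of its growth and permeability signal, and VEGFR-1 (from Flt1), which binds it tightly but signals weakly and also exists as a soluble decoy. VEGF-C signals mainly through VEGFR-3 (from Flt4), and the neuropilins Nrp1 and Nrp2 assist these receptors. Angiopoietin-1, from mural cells, activates the receptor TIE2 (from Tek) and stabilises vessels, while angiopoietin-2 (from Angpt2), which endothelial cells make and store themselves, antagonises TIE2 in many settings, and TIE1 modulates TIE2 without a firmly established ligand of its own.

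None of the 10 genes passed any of the tests made between treatment groups, which does not show that they were unchanged. Their levels differed more between libraries of the same group than between groups. The widest gap in the values of Nrp1 separated 8 libraries, in which it was low, from the other 12. Tek was lower in all of the 8 than in any of the 12, and Angpt2 was mostly higher. Every treatment group held libraries of both kinds.

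The promoters of 4 genes are shown because Tek and Vegfc were low in the same libraries and because Kdr and Flt1 encode the receptors that share VEGF-A. They are the 250 bases before the RefSeq transcription start, on GRCm38.p6, each printed 5′ to 3′ on the strand of its gene. Capitals mark the GC box GGGCGG on either strand. The Tek sequence is chr4:94739039-94739288 on the plus strand and the Vegfc sequence chr8:54077282-54077531 on the plus strand. The Flt1 sequence is chr5:147726012-147726261 and the Kdr sequence chr5:75978456-75978705, both on the minus strand.
Tek: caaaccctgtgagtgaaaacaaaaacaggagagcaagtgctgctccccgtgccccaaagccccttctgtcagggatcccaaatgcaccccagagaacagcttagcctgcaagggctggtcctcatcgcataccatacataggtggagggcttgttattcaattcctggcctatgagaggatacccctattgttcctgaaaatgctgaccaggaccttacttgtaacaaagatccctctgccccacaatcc
Vegfc: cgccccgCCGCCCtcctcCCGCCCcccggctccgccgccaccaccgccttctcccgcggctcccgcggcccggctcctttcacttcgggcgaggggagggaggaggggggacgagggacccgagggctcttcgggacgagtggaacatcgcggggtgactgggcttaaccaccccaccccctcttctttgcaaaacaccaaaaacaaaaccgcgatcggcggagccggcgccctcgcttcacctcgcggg
Flt1: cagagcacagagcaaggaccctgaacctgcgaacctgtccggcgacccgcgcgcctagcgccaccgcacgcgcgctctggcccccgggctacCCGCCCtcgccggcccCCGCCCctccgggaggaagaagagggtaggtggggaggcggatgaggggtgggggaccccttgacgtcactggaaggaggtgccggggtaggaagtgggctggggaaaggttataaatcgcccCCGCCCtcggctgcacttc
Kdr: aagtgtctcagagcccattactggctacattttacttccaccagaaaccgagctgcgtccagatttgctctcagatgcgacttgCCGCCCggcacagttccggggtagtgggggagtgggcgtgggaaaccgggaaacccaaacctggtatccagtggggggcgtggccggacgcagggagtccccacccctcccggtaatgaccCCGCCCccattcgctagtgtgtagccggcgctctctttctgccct
The Vegfc and Kdr windows hold 2 GC boxes each and the Flt1 window 3, whereas the Tek window has no match to these letters. RefSeq windows were matched for 9 of the 10 genes, and 7 of those 9 hold a GC box before the start, against 32.7% of 32851 promoters of the same length. Tie1, like Tek, has no match. The Flt1 window also holds a TATA box (TATAAA, in 12.4% of all promoters) 31 bases before the start. The hypoxia core ACGTG or GCGTG, searched on both strands, is in 5 of the 9 genes and in 38.6% of all promoters, with 2 matches in Kdr and 1 in Flt1. A gene was counted if any of its windows held a match, whereas the share over all promoters is per window. Vegfa was counted only through a window that lies wholly inside the gene, with 2 matches. Its window at the start of the gene has 0. The ETS core CCGGAA, bound by endothelial transcription factors such as ERG, is in the Kdr window and in 12% of all promoters. The forkhead core TGTTTAC has no match in any of the 9 genes and is in 3.17% of all promoters. The Vegfc, Flt1 and Kdr windows are GC-rich, at 71.6%, 70.4% and 61.6%, and Tek is at 51.2%, close to the median of 52.4% over all promoters. None of these matches was tested as a binding site.

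Values are the authors' normalized counts, taken here to be read counts scaled by library and then rounded. A factor per library does not change the range between genes. Why that range is narrower in the wild-type table than in the knockout-labelled one, as described below, is unknown here. The wild-type libraries held 4.49 to 4.72 M normalized counts each, with 1009 to 1952 genes at 0. Defining endothelial markers were present in every library, with Cdh5 at 2560 to 3254 and Pecam1 at 2358 to 3035, and 12 endothelial markers other than the genes described here summed to 15304 to 18600. Pericyte markers summed to 2043 to 4404 and fibroblast and meningeal markers to 84 to 841. Of the pericyte markers, Mcam was at 1467 to 1951, Cspg4 at 49 to 751 and Notch3 at 39 to 734. Of the lymphatic endothelial markers, Lyve1 was at 19 to 86, Prox1 at 0 to 12 and Ccl21a at 0 to 18. In 4 libraries the X-inactivation RNA Xist did not match the other libraries of the same replicate number (S1P basal replicate 2, S1P apical replicates 3 and 4, and agonist apical replicate 2), so comparisons are also given without them. In bulk RNA, fewer cells of a type and less RNA per cell cannot be told apart. The libraries labelled S1P4 knockout stand in a table normalized on its own, at 17.4 to 17.8 M per library. There S1pr4, the targeted receptor gene, was at 250 to 349 normalized counts, against 113 to 190 in the wild-type table. The scales differ and the deleted part of S1pr4 is not known here, so this value does not check the label.

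Per kb of exon in vehicle, Angpt2 (chr8:18690263-18741562, mm10, minus strand) had the highest level of the 10 genes, at 535 ± 58.4 normalized counts per kb (SD, n = 4). Tie1 (chr4:118471191-118490061, minus) followed at 447 ± 15.3, Tek (chr4:94739289-94874976, plus) at 346 ± 24.8, Kdr (chr5:75932827-75978458, minus) at 304 ± 10.3 and Flt1 (chr5:147561604-147726011, minus) at 290 ± 25.5. Flt4 (chr11:49609263-49652739, plus) stood at 186 ± 10.5 and Nrp2 (chr1:62703285-62818695, plus) at 163 ± 7.61. Vegfc (chr8:54077606-54187096, plus) had 117 ± 11.9, Nrp1 (chr8:128358604-128503363, plus) 106 ± 9.68 and Vegfa (chr17:46016993-46032369, minus) 38.7 ± 5.06. The ranges of neighbours in this order overlapped for Tek and Kdr, for Kdr and Flt1, and for Vegfc and Nrp1. The other neighbours did not overlap in vehicle. Angpt2 was above Tie1 in 18 of the 20 wild-type libraries, Tek above Kdr in 14 and Kdr above Flt1 in 17. Both growth factor genes, Vegfc and Vegfa, were thus below every receptor gene other than Nrp1 in vehicle. The range between genes is narrower in the wild-type table, so this order may depend on the table. In the knockout-labelled libraries Tek was below Kdr and Flt1, and Vegfc below Nrp1.

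**Figure D1:**
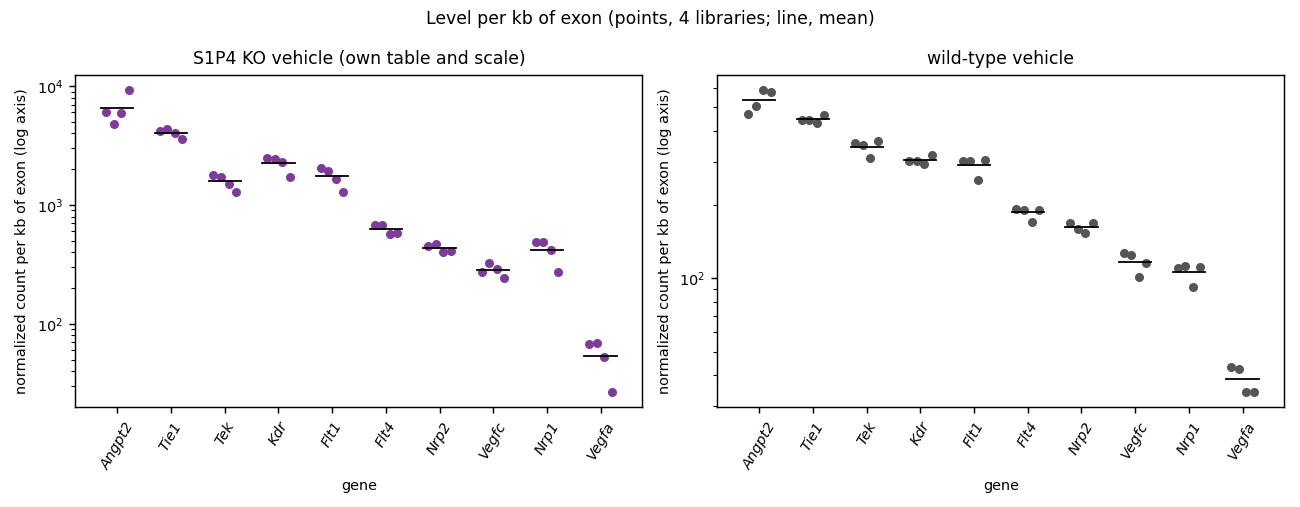
Normalized count per kb of exon (log axes, each table on its own scale) in the 4 libraries labelled S1P4 knockout (left) and the 4 wild-type vehicle libraries (right), with the mean as a line. Angpt2 and Tie1 are the highest and Vegfa is the lowest in both panels, while Tek stands above Kdr and Flt1 only in the wild-type table.

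Among the libraries labelled S1P4 knockout the order per kb was Angpt2 at 6555 ± 1945, Tie1 at 4035 ± 337, Kdr at 2239 ± 359, Flt1 at 1739 ± 338 and Tek at 1586 ± 228 (SD, n = 4). Flt4 followed at 628 ± 58.3, Nrp2 at 433 ± 31.3, Nrp1 at 416 ± 100.5, Vegfc at 283 ± 33.6 and Vegfa at 54.0 ± 19.6. Levels lay further apart there than in the wild-type table: the log2 ratio of Flt1 to Vegfa within a library was 6.73 ± 0.35 (n = 4), against 4.67 ± 0.23 over the 20 wild-type libraries. The most abundant gene of a library took 1.19 to 1.52% of the total in the knockout-labelled table and 0.134 to 0.182% in the wild-type table. High values are thus closer together in the wild-type table, and fold changes of Flt1, Kdr and other abundant genes may be understated there. Genotype and table cannot be told apart, and no test was made between them.

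Against vehicle, none of the 7 receptor and co-receptor genes was called with basal S1P. Tests were made with limma on log2(value + 1) over all 20 wild-type libraries, with p-values adjusted by Benjamini-Hochberg over 12249 genes, and a change is given with its standard error (SE). Kdr had 2771, 2837, 2675 and 2968 normalized counts with basal S1P (replicates 1 to 4), against 2728, 2732, 2658 and 2879 with vehicle. The groups overlapped, and the log2 change was 0.03 ± 0.05 (SE, adjusted p = 0.845), with a 95% interval of 0.953 to 1.10-fold. Flt1 had 3991, 3861, 3553 and 4091 with basal S1P, against 4078, 4086, 3405 and 4113 with vehicle. In both groups replicate 3 was the lowest, and the log2 change was -0.01 ± 0.08 (adjusted p = 0.960). The table counts membrane-bound and soluble Flt1 transcripts together.

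Flt4 was the only 1 of the 10 genes whose libraries did not overlap between basal S1P and vehicle. It had 1598, 1591, 1650 and 1723 with basal S1P, against 1586, 1562, 1402 and 1572 with vehicle. The lowest library with basal S1P (1591) was just above the highest with vehicle (1586), and vehicle replicate 3 was well below the other 3. The log2 change was 0.10 ± 0.05, the unadjusted p 0.0694 and the adjusted p 0.756, so the gene did not pass. Without vehicle replicate 3 the log2 change was 0.06 (adjusted p = 0.580). Over all genes tested, 2.11% had groups that did not overlap in this comparison and 0.0245% were called, so 1 of 10 non-overlapping genes and 0 of 10 called genes stand beside that background.

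Among the co-receptors, Nrp1 had 1149, 903, 844 and 1132 with basal S1P, against 1080, 1095, 897 and 1083 with vehicle. Both groups held libraries near the bottom of the range of this gene (903 and 844 with basal S1P, 897 with vehicle), and the log2 change was -0.05 ± 0.13 (adjusted p = 0.906). Nrp2, the partner of VEGFR-3, had 2115, 1962, 1979 and 2118 with basal S1P, against 2000, 1888, 1816 and 1999 with vehicle. Its log2 change was 0.09 ± 0.07 (adjusted p = 0.756), with overlapping groups.

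The TIE receptors were near equal in both groups. Tek had 1700, 1355, 1620 and 1786 with basal S1P, against 1681, 1662, 1458 and 1719 with vehicle (log2 change -0.02 ± 0.11, adjusted p = 0.967). Tie1 had 2247, 2199, 2199 and 2346 with basal S1P, against 2182, 2192, 2115 and 2297 with vehicle (log2 change 0.03 ± 0.05, adjusted p = 0.853). The 95% interval was 0.839 to 1.16-fold for Tek and 0.947 to 1.11-fold for Tie1, so it was tighter for Tie1.

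Among the ligands, Vegfc had the lowest log2 change with basal S1P. It was at 256, 159, 208 and 297 with basal S1P, against 312, 305, 247 and 283 with vehicle. The low values were S1P basal replicates 2 and 3, and the groups overlapped. The log2 change was -0.35 ± 0.19 (unadjusted p = 0.0752, adjusted p = 0.756), with a 95% interval of 0.600 to 1.03-fold. Without S1P basal replicate 2, which is also 1 of the 4 libraries that did not match by Xist, it was -0.19 (adjusted p = 0.999). Angpt2 had 1659, 2476, 2359 and 1877 with basal S1P, against 1727, 1866, 2183 and 2126 with vehicle. Its libraries with basal S1P spanned the vehicle range on both sides, and the log2 change was 0.07 ± 0.14 (adjusted p = 0.880). Vegfa had 152, 127, 172 and 173 with basal S1P, against 186, 183, 147 and 147 with vehicle (log2 change -0.09 ± 0.16, adjusted p = 0.866). Without the 4 libraries, log2 changes of the 10 genes ran between -0.19 and 0.12, the smallest adjusted p was 0.998, and the sign was the opposite for Vegfa, Tek and Angpt2.

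**Figure D2:**
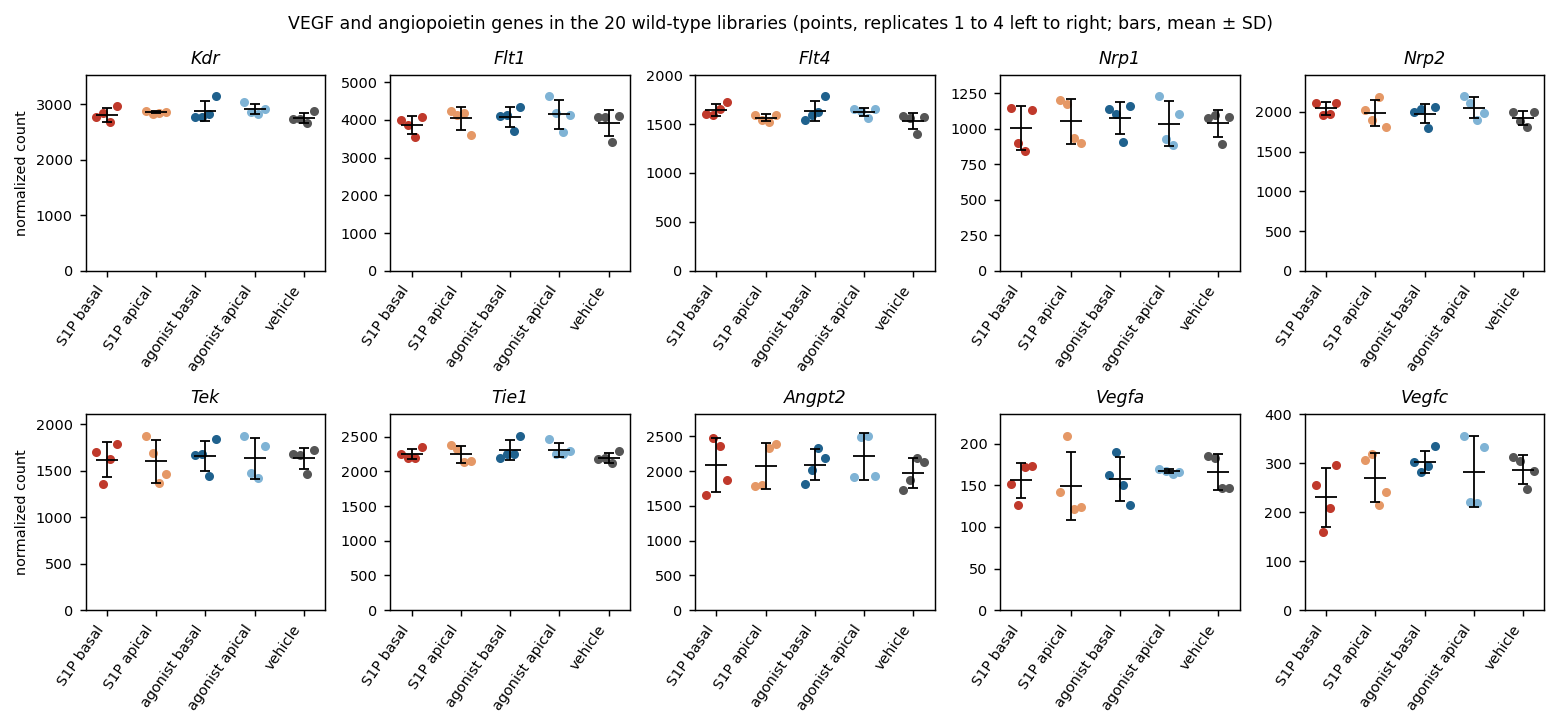
Normalized count of each of the 10 genes (one panel per gene, axis from 0) in the 4 libraries of each treatment group, with the mean and SD in black. The libraries of every group overlap those of vehicle in all panels except Flt4 with basal S1P, and the spread within groups is widest for Angpt2, Nrp1, Tek, Vegfa and Vegfc.

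Apical S1P gave 0 of 10 called genes and 0 of 10 non-overlapping genes, where 0% of all genes were called and 1.32% did not overlap. Kdr had 2878, 2833, 2849 and 2865 normalized counts with apical S1P, 4 values that lay close together and within the range of vehicle. Its log2 change was 0.06 ± 0.05 (limma, adjusted p = 1.00). Flt1 was at 4231, 4124, 4197 and 3602 with apical S1P, Flt4 at 1592, 1543, 1521 and 1595, and Tie1 at 2383, 2324, 2132 and 2155. These 3 receptors had log2 changes of 0.04 ± 0.08, 0.03 ± 0.05 and 0.03 ± 0.05. Nrp1 had 1206, 1175, 934 and 899, Tek 1875, 1686, 1364 and 1466, and Angpt2 1784, 1801, 2334 and 2390. In these 3 genes replicates 1 and 2 stood apart from replicates 3 and 4, with Angpt2 running the other way. Nrp2 was at 2030, 1899, 2186 and 1812, Vegfa at 142, 210, 122 and 124 and Vegfc at 306, 318, 215 and 241. S1P apical replicates 3 and 4 are among the libraries that did not match by Xist. Leaving out the 4 libraries moved the log2 change of Nrp1 to 0.20 from 0.01 with all libraries, of Tek to 0.13 from -0.04, of Angpt2 to -0.13 from 0.07, of Vegfa to 0.07 from -0.18 and of Vegfc to 0.13 from -0.10, so that the last 4 had the opposite sign. None of the 10 passed there either (smallest adjusted p = 1.00, limma).

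The basal agonist gave 0 of 10 called genes and 0 of 10 non-overlapping genes, where 0% of all genes were called and 0.588% did not overlap. The log2 change was above 0 for 9 of the 10 genes, where it was above 0 for 52.5% of all genes. Its median was 0.06 for the 10 genes, against 0.00 over all genes tested. Flt4 came nearest to separation, at 1537, 1593, 1622 and 1783 with the basal agonist (log2 change 0.09 ± 0.05, unadjusted p = 0.0905, adjusted p = 1.00 by limma). Kdr was at 2775, 2766, 2833 and 3144, Flt1 at 4098, 4141, 3707 and 4337 and Tie1 at 2197, 2253, 2255 and 2517. Replicate 4 was the highest library of this group for all 3. Nrp1 was at 1142, 1102, 908 and 1159, Tek at 1672, 1679, 1445 and 1839 and Vegfc at 302, 282, 293 and 334. Nrp2 was at 2003, 2042, 1800 and 2068, Angpt2 at 1818, 2010, 2334 and 2185 and Vegfa at 163, 190, 151 and 127. In replicate 3 Nrp1 and Tek were at their lowest and Angpt2 at its highest.

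The apical agonist also gave 0 of 10 called genes and 0 of 10 non-overlapping genes, where 0% of all genes were called and 0.678% did not overlap. The log2 change was above 0 for 7 genes, where it was above 0 for 48.5% of all genes, and its median over the 10 was 0.08. Angpt2, at 1911, 2491, 2509 and 1932, had the highest log2 change of the 10 genes (0.16 ± 0.14, adjusted p = 1.00 by limma). Without the 4 libraries that did not match by Xist, log2 changes of the 10 genes ran between 0.02 and 0.09. Kdr was at 3047, 2867, 2827 and 2910, Flt1 at 4626, 4171, 3671 and 4125 and Flt4 at 1656, 1631, 1564 and 1650. Tie1 was at 2462, 2247, 2249 and 2299 and Nrp2 at 2196, 2115, 1899 and 1990. Replicate 1 was the highest of the group for these 5 receptors and co-receptors. Nrp1 was at 1230, 931, 884 and 1106, Tek at 1873, 1478, 1418 and 1763 and Vegfc at 356, 221, 219 and 332. Vegfa, at 170, 168, 164 and 166, was the steadiest of the 10 genes in this group. The 4 comparisons with vehicle share the same vehicle libraries. The doses of S1P and agonist differ, so no single S1P group is compared with an agonist group.

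**Figure D3:**
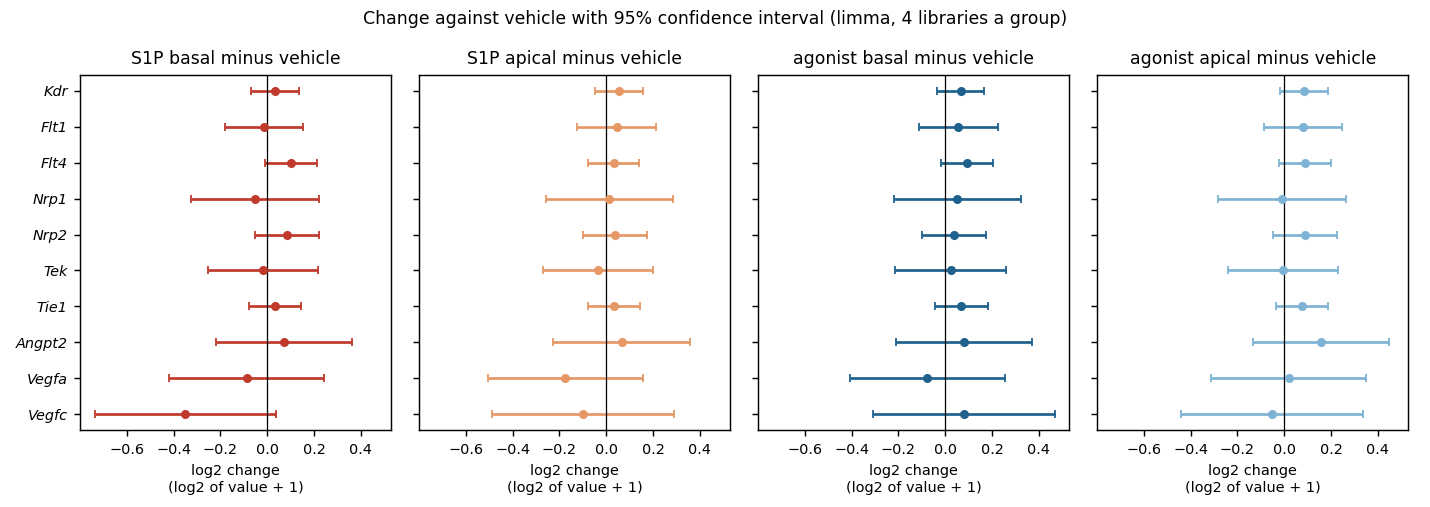
Log2 change against vehicle with its 95% confidence interval (limma, 4 libraries per group) for the 10 genes, one panel per treatment. Every interval includes 0, and they are narrowest for Kdr, Flt4 and Tie1 and widest for Vegfc.

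Comparing sides, basal against apical S1P gave 0 of 10 called and 0 of 10 non-overlapping genes, where 0.0245% of all genes were called and 1.4% did not overlap. Log2 changes ran between -0.25 for Vegfc and 0.09 for Vegfa (smallest adjusted p = 0.999, limma), and between -0.31 and 0.12 without the 4 libraries (smallest adjusted p = 0.699). Basal against apical agonist gave 0 of 10 called and 0 of 10 non-overlapping genes, where 0% and 0.433% of all genes did. There the log2 changes ran between -0.10 for Vegfa and 0.14 for Vegfc. Without the 4 libraries they were -0.09 for Vegfa and 0.03 for Vegfc, which were again the lowest and the highest of the 10. The submitters' contrast of barrier opening with tightening sets basal S1P against apical S1P and both agonist groups together, so it mixes compounds and doses. In it 0 of 10 genes were called, where 0.049% of all genes were, and 0 of 10 did not overlap, where 0.253% did. Vegfc averaged 230.0 ± 59.7 with basal S1P (SD, n = 4), against 284.9 ± 49.4 over the 12 libraries of the other 3 treatments. Its log2 change was -0.33 ± 0.15 with an unadjusted p of 0.0451 and an adjusted p of 0.870 by limma. It was the only 1 of the 10 genes under 0.05 before adjustment in any of these comparisons, where 5.63% of all genes were in this one. Without S1P basal replicate 2 it was -0.16, and without the 4 libraries -0.27. In a test of any difference among the 5 groups, 0 of 10 genes passed (adjusted p = 1.00 for each, limma F test), where 0.0245% of all genes did.

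Group means of a gene differed by little. The highest group mean was 1.04 times the lowest for Tek, 1.05 for Tie1, 1.06 for Kdr and Nrp2, 1.07 for Flt1, Flt4 and Nrp1, and 1.12 for Angpt2 and Vegfa. For Vegfc it was 1.32 times. Single libraries differed more, with the highest over the lowest of the 20 at 1.18 for Kdr, 1.19 for Tie1, 1.46 for Nrp1, 1.51 for Angpt2, 1.72 for Vegfa and 2.24 for Vegfc. The share of the variance of log2 values that went with replicate number was 62.1% for Nrp1, 55.6% for Angpt2 and 52.0% for Tek, and the share that went with treatment group was 3.78%, 6.82% and 1.80% for the same genes. Flt4 was the only 1 of the 10 with more variance by treatment (33.9%) than by replicate number (29.0%). The medians over all genes tested were 42.9% by replicate number and 13.9% by treatment.

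Nrp1 separated the libraries into 8 between 844 and 934 normalized counts and 12 between 1080 and 1230, with a gap of 146 between them. The 8 were the 5 libraries numbered 3, S1P basal replicate 2, agonist apical replicate 2 and S1P apical replicate 4. They include all 4 libraries that did not match by Xist. Basal S1P, apical S1P and the apical agonist held 2 of them each, and the basal agonist and vehicle 1 each. Tek was at 1355 to 1620 in the 8 libraries and at 1662 to 1875 in the other 12, with no overlap. Angpt2 ran the other way, at 2183 to 2509 in the 8 and 1659 to 2185 in the 12, so that the ranges touched only at agonist basal replicate 4 and vehicle replicate 3. Vegfc was at 159 to 293 and 256 to 356, and Flt1 at 3405 to 4197 and 3991 to 4626. Kdr (2658 to 2867 and 2728 to 3144) and Flt4 (1402 to 1650 and 1537 to 1783) overlapped widely. The sets were found from these values, so no test is given. Other markers differed between the sets in their medians, with overlapping ranges. Summed pericyte markers ran from 2422 to 3840 with a median of 2801.5 in the 8 libraries, and from 2043 to 4404 with a median of 3780.0 in the 12. Fibroblast and meningeal markers ran from 102 to 841 with a median of 160.0 in the 8, and from 84 to 840 with a median of 662.5 in the 12. Neuron markers ran the other way, from 89 to 347 with a median of 247.5 in the 8 and from 110 to 178 with a median of 152.0 in the 12. The highest of them was Tubb3, at 72 to 327 over the 20 libraries, while Map2 was at 7 to 47 and Rbfox3 at 0 to 7. The neuron sum thus rests largely on a single gene. Endothelial markers ran from 15619 to 18082 with a median of 17258 in the 8, and from 15304 to 18600 with a median of 16315 in the 12. Xist ran from 525 to 1608 in the 8 and from 0 to 2555 in the 12. The part of these markers in the pattern was not tested.

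**Figure D4:**
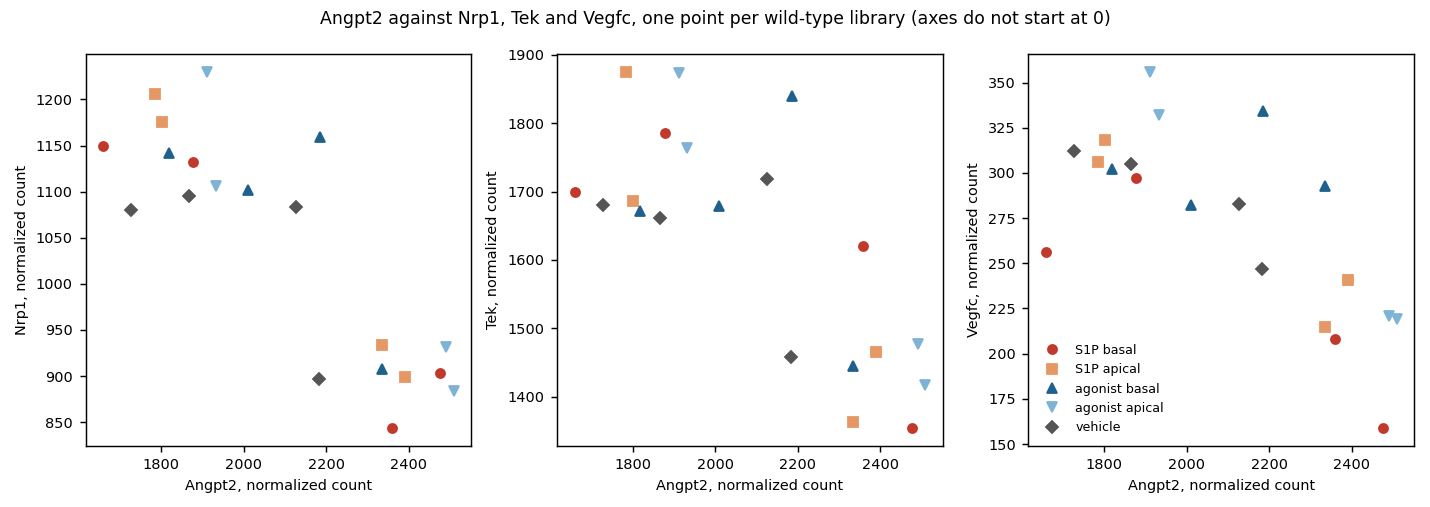
Normalized count of Nrp1, Tek and Vegfc against that of Angpt2 in the 20 wild-type libraries (axes do not start at 0), with a symbol for each treatment group. The 8 libraries with Nrp1 at 934 or less lie at the lower right of the first panel, and every treatment group has points in both clusters.

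Within each set Angpt2 was only weakly related to Nrp1 and Tek. The correlation of Angpt2 with Nrp1 was 0.07 over the 8 libraries and -0.16 over the 12, and that of Angpt2 with Tek was -0.18 and 0.27 (Pearson r of log2 values). These correlations are given as a description, since libraries may share cell preparations and all genes of a library share its scaling factor. Since the sets were divided by Nrp1 itself, the range of Nrp1 and Tek within a set is narrow, which lowers r there. Angpt2 and Vegfc had r = -0.49 over the 8 libraries and 0.29 over the 12. Kdr and Tie1 ran together in the 12 libraries (r = 0.94) and less so in the 8 (r = 0.38), as did Tek and Tie1 (0.88 and 0.13). Flt1 and Nrp1 were positively related in both sets (0.67 in the 12 and 0.72 in the 8). Nrp1 and Tek were positively related in the 12 libraries (0.69) and inversely in the 8 (-0.70). The inverse value leans on S1P basal replicate 3, which had the lowest Nrp1 (844) and the highest Tek (1620) of the 8. The next highest Tek among the 8 was 1478, in agonist apical replicate 2.

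Among the libraries labelled S1P4 knockout, in their separate table, 1 of the 4 combined the highest Angpt2 with the lowest Nrp1 and Tek. Angpt2 was at 22533, 17752, 21999 and 34462 normalized counts in replicates 1 to 4, and Nrp1 at 4751, 4777, 4060 and 2679. Tek was at 8480, 8159, 7141 and 6110, Flt1 at 27852, 26058, 22539 and 17494 and Kdr at 22534, 22044, 20828 and 15481. Replicate 4 had the highest Angpt2 and the lowest Nrp1, Tek, Flt1 and Kdr. Tie1 (20434, 21490, 19866 and 17564), Vegfa (290, 295, 226 and 115) and Vegfc (670, 799, 702 and 601) were also lowest in replicate 4. Flt4 (5604, 5567, 4700 and 4819) and Nrp2 (5328, 5555, 4807 and 4832) were lowest in replicate 3. In this group 12 endothelial markers summed to 263746, 262266, 271049 and 260377 and 11 pericyte markers to 16490, 16086, 13656 and 12263.

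The genes most like each of the 10 were found by Pearson r of log2 values over the 20 wild-type libraries, among 10312 genes. Because the libraries fall into sets, r over all 20 includes the gap between the sets, and r within the 8 and within the 12 libraries is given beside it as a description. Most like Angpt2 was Ccn1, which encodes a secreted matrix protein induced by growth factors and stretch (r = 0.98 over the 20, 0.87 over the 8 and 0.95 over the 12). The next was Apln, which encodes apelin, a peptide made by endothelial tip cells (0.98 over the 20, 0.91 over the 8 and 0.90 over the 12). Among the libraries labelled S1P4 knockout, Apln was at 43168, 33651, 51524 and 86197, and Ccn1, listed there as Cyr61, at 13861, 11247, 14644 and 22642. Both were highest in replicate 4 and lowest in replicate 2, as Angpt2 was.

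Nrp1 was most like Ephb4, the receptor for ephrin-B2 that marks venous endothelium (r = 0.97 over the 20, 0.81 over the 8 and 0.80 over the 12), and Lgmn, a lysosomal protease gene (0.96, 0.76 and 0.73). Tek was most like Phlpp1, which encodes a phosphatase of AKT (0.94, 0.95 and 0.38), and Add3, a membrane skeleton gene (0.94, 0.81 and 0.68). The relation of Tek to Phlpp1 was thus weak over the 12 libraries. Vegfc was most like Fbn1, the gene of the matrix protein fibrillin-1 (0.93, 0.93 and 0.48), and Baiap2l1 (0.93, 0.94 and 0.70).

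The 3 VEGF receptor genes had r of 0.76 or more with the genes most like them in both sets. Flt1 was most like Cpd, a carboxypeptidase gene (0.95, 0.95 and 0.88), and Ankrd13a, which acts in endocytosis (0.95, 0.94 and 0.83). Kdr was most like Dag1, which encodes dystroglycan (0.85, 0.82 and 0.86), and Nrarp, a feedback gene of Notch signalling (0.84, 0.94 and 0.82). Flt4 was most like Podxl, which encodes the surface protein podocalyxin (0.82, 0.77 and 0.88), and Map4, a microtubule gene (0.82, 0.76 and 0.83). Tie1 was most like Eif4b, a translation factor gene (0.86, 0.57 and 0.87), and Sparcl1, a matrix protein gene (0.84, 0.57 and 0.96). Nrp2 was most like Man2b1, a lysosomal mannosidase gene (0.80, 0.75 and 0.79), and Lima1, an actin-binding protein gene (0.79, 0.97 and 0.42). Vegfa was most like Spsb2 (0.88, 0.90 and 0.82) and Rabep2 (0.86, 0.83 and 0.87).

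Ratios within a library do not depend on its scaling factor, but the narrower range of the wild-type table may understate them. The log2 ratio of Flt1 to Kdr was 0.46 ± 0.05 with basal S1P, 0.50 ± 0.11 with apical S1P, 0.50 ± 0.09 with the basal agonist, 0.51 ± 0.10 with the apical agonist and 0.51 ± 0.11 with vehicle (SD, n = 4 each). The ratio of Tie1 to Tek was 0.48 ± 0.14, 0.50 ± 0.13, 0.48 ± 0.11, 0.51 ± 0.14 and 0.43 ± 0.07 in the same order of groups. The groups overlapped for both pairs. The widest gap between group means of the ratio of Tie1 to Tek, between the apical agonist and vehicle, was above the SD of vehicle and below that of the apical agonist. The ratio of the ligand Angpt2 to its receptor gene Tek was 0.36 ± 0.42, 0.38 ± 0.43, 0.33 ± 0.25, 0.43 ± 0.41 and 0.27 ± 0.23, and ran from -0.07 to 0.87 over single libraries. That of Nrp2 to Nrp1 was 1.03 ± 0.17, 0.92 ± 0.25, 0.88 ± 0.08, 0.99 ± 0.18 and 0.89 ± 0.09. The groups of these pairs also overlapped. Without the 4 libraries, the ratio of Angpt2 to Tek was 0.19 ± 0.31 with basal S1P (n = 3), 0.01 ± 0.12 with apical S1P (n = 2) and 0.33 ± 0.43 with the apical agonist (n = 3), and the other 2 groups were as before.

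Other genes of the VEGF and angiopoietin systems, in 6 lists by role, gave 0 called genes in every comparison, where 0 to 0.049% of all genes were called. Of all genes, 50.0% had a higher mean log2 value with basal S1P than with vehicle. Of the 3 other ligands that could be tested, 2 had a higher and 1 a lower mean log2 value with basal S1P than with vehicle (median log2 change 0.07). Of the remaining ligands, Angpt1 was at 2 to 20 normalized counts and Svep1, a proposed ligand of TIE1 in lymphatic vessels, at 0 to 3, both too low to test. The tested ones, Vegfb, Vegfd and Pgf, differed widely in level. Vegfb was at 187 to 232, Vegfd at 5 to 33 and Pgf, a ligand of VEGFR-1, at 766 to 1199. Pgf averaged 1047 ± 145 with basal S1P and 908 ± 126 with vehicle (log2 change 0.21 ± 0.14, adjusted p = 0.756, limma; SD, n = 4 each). Vegfd, a ligand gene at low level, averaged 13.0 ± 9.42 with basal S1P and 20.0 ± 9.31 with vehicle (log2 change -0.67 ± 0.53, adjusted p = 0.756). Of 19 receptor partners, 13 had a higher mean and 6 a lower mean with basal S1P than with vehicle (median log2 change 0.08, against 0.00 over all genes), and none passed. Ptprb, the phosphatase VE-PTP that acts on TIE2, was at 3242 to 5274 over the 20 libraries. The integrin genes Itgb3 and Itga5 had log2 changes of 0.25 ± 0.10 and 0.13 ± 0.05 with basal S1P (adjusted p = 0.756 each).

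Of 30 tested signalling adaptors and kinases, 19 had a higher and 11 a lower mean with basal S1P than with vehicle (median log2 change 0.07). Of all genes, 50.0% had a higher mean. Nos3, endothelial nitric oxide synthase, which VEGF signalling activates, averaged 2058 ± 154 with basal S1P and 1803 ± 78.5 with vehicle. Its log2 change of 0.19 ± 0.06 had an unadjusted p of 0.00651 and an adjusted p of 0.756 (limma), so it did not pass. For Gab1, which encodes an adaptor, it was -0.26 ± 0.15 (adjusted p = 0.756). Of 17 VEGF-induced genes, 9 had a higher and 8 a lower mean (median 0.07). Among them Plaur, the urokinase receptor, had a log2 change of 0.39 ± 0.18 and Rcan1, a calcineurin inhibitor, 0.23 ± 0.11 (adjusted p = 0.756 each).

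TIE2 signalling restrains FOXO proteins through AKT. Of 12 genes listed as FOXO factors and targets, 0 passed with basal S1P against vehicle, where 0.0245% of all genes did. Of these 12, 10 had a lower mean than in vehicle (median log2 change -0.22), where 50.0% of all genes did. Against the 3 tightening treatments 0 of 12 passed and 11 of 12 had a lower mean (median -0.18), where 0.049% of all genes passed and 48.8% had a lower mean. Without the 4 libraries 11 of 12 were lower than vehicle (median -0.22, against 49.0% of all genes) and 10 of 12 lower than the tightening treatments (median -0.21, against 49.9%), and 0 passed. Of the other treatments against vehicle, 8 of 12 were lower with apical S1P (median -0.03) and 9 with the basal agonist (median -0.03). With the apical agonist 6 were lower. Of all genes, 50.2%, 47.5% and 51.5% were lower in these 3 comparisons. Without the 4 libraries the counts were 4, 9 and 6. The 12 genes were not tested as a group. Other lists also ran mostly in 1 direction in some comparisons. Of 30 signalling genes, 22 were higher and 8 lower with basal S1P than with the tightening treatments, where 51.2% of all genes were higher. Without the 4 libraries, 16 of 17 VEGF-induced genes were lower with apical S1P than with vehicle, where 48.5% of all genes were lower. These lists were not tested as groups either. Ccng2, a cell cycle gene induced by FOXO, averaged 238.8 ± 50.9 with basal S1P and 291.0 ± 19.7 with vehicle (log2 change -0.31 ± 0.12, adjusted p = 0.756, limma). For Bcl6, which encodes a transcriptional repressor, the value was -0.70 ± 0.34 (adjusted p = 0.756). Of 8 HIF factors and regulators, 5 had a higher and 3 a lower mean (median 0.02), where 50.0% of all genes were higher, with Arnt at -0.10 ± 0.06 (adjusted p = 0.756) and Epas1, the endothelial HIF-2 subunit, at 0.03 ± 0.06 (adjusted p = 0.874). Without the 4 libraries, 2 of the 8 HIF genes, 13 of 19 receptor partners, 22 of 29 signalling genes and 11 of 17 VEGF-induced genes had a higher mean than in vehicle, where 51.0% of all genes did. None of the genes in these lists passed there either. Of the list genes whose changes are given here, the value nearest to passing was that of Nos3 (log2 change 0.23 ± 0.07, adjusted p = 0.711, limma).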

How the data were processed

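mRNA was sequenced after stranded library preparation from 100 ng of RNA, per the labels' protocols. Tools listed by the submitters' processing notes, with no role or order, are STAR 2.7.3a, Trimmomatic 0.38, DESeq2 1.26.0, featureCounts 1.6.5 and FastQC, and the build is mm10. The setting for strand is unknown here. What the authors deposited is a signal per gene, in whole numbers with nearly equal totals, taken here as counts scaled by library and rounded; what makes the wild-type table narrower in range is unknown here. Whole reads could not be recovered, and a count model was not fitted. The 10 genes and all lists were chosen with earlier results of these data known. Genes whose mean in wild-type libraries reached 10 were fitted as log2(value + 1) by limma 3.58.1 under R 4.3.3. The 5 group means were the terms and the prior variance followed a trend. P-values were adjusted by Benjamini-Hochberg, with calls at 0.05. The scripts were tested on simulated data. There the fit of basal S1P against vehicle called 10.8% of genes set to change 1.2-fold, 54% at 1.5-fold and 73.2% at 2-fold. The genes named were the 10, up to 2 most like each, 2 of each list by p and the top markers; Angpt1, Svep1, Vegfb, Vegfd and Ptprb were named for their levels. Exon lengths are from GENCODE M21, whose start and end matched 99.1% of genes. The knockout table repeats 18029 rows, and 1 row per gene was kept. Promoters lying inside an annotated gene were searched but not printed. Alternatives changed the pseudocount, filter, scaling, prior, weights, block and libraries.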

Additional observations from a re-analysis of the deposited data

Results flagged for a closer look

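In 60 groups of 4 libraries (10 genes in 6 groups), 4 held a library far from the other 3, by the gap to the nearest library divided by the range of the group, set against Dixon's 95% critical value. Chance alone gives about 1 such group in 20. In vehicle, replicate 3 was the low library for Flt1 (3405, against 4078 to 4113 in the others, ratio 0.951), for Nrp1 (897 against 1080 to 1095, ratio 0.924) and for Flt4 (1402 against 1562 to 1586, ratio 0.870). These 3 are the same library, so they are not separate observations. With apical S1P, replicate 4 was low for Flt1 (3602, against 4124 to 4231, ratio 0.830). Both libraries belong to the 8 with low Nrp1.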

How the results depend on the processing

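The count of 0 called genes among the 10 held in every comparison under all 31 alternatives (other pseudocounts, filters, scalings, prior and weights, fits to the compared groups alone, leaving out each library, leaving out the 4 libraries that did not match by Xist, and a replicate block). The smallest adjusted p of any of the 10 genes was 0.198, for Vegfc with basal S1P against vehicle under library weights. None of the log2 changes of the 10 genes that moved by more than the spread between libraries passed the test: these were Nrp1 (0.20), Tek (0.13), Angpt2 (-0.13) and Vegfa (0.07) with apical S1P against vehicle, without the 4 libraries (adjusted p = 1.00 each, limma). With the replicate number as a block, 0 of the 10 genes were called in each of the 7 comparisons, while over all genes the count of called genes was 47 for basal S1P against vehicle, 83 against apical S1P and 137 against the 3 tightening treatments, where without the block it was 3, 3 and 6. Same-numbered libraries deviated together with r above 0.1 in 36 of 40 pairs and 16 of 20 libraries were most like a library of their own number, a hint from the data and not from the design. All 4 pairs at or below 0.1 held at least 1 of the libraries that did not match by Xist. Since not every pair exceeded 0.1 and no label ties the numbers to a pool or day, the numbers were not taken to pair the samples. Library weights gave 13 called genes for basal S1P against vehicle and 27 against the tightening treatments. Fits to the compared groups alone gave 0 called genes for basal S1P against vehicle, 1 against apical S1P and 3 against the tightening treatments, and leaving out the 4 libraries gave 0 against apical S1P. Leaving out 1 library gave 2 to 4 called genes for basal S1P against vehicle, 1 to 3 against apical S1P and 3 to 9 against the tightening treatments. With 4 libraries a group, the 95% intervals against vehicle ran widest at a log2 change of -0.74 and 0.47, both for Vegfc.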
